A study of Mus musculus with 768 samples.

Results

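Genes that carry or receive Wnt and Rank signals were followed in single cells of the mouse mammary gland. The 10 genes, of 23997 gene names in the count tables, were taken by name, with no threshold on their values. They are the Wnt ligands Wnt4, Wnt5a and Wnt7b, the secreted Wnt enhancer Rspo1 and its receptor Lgr5, the intracellular Wnt inhibitor Nkd2, the Rank ligand Tnfsf11 (RANKL) and its receptor Tnfrsf11a (RANK), and the nuclear Wnt effectors Tcf7 and Lef1. All 10 had a row in both tables. On GRCm38 (GENCODE) these protein-coding genes lie as follows: Wnt4 at chr4:137277489-137299726 (plus strand), Wnt5a at chr14:28504750-28527448 (plus strand), Wnt7b at chr15:85535437-85582473 (minus strand), Rspo1 at chr4:124986430-125009099 (plus strand), Lgr5 at chr10:115450311-115587780 (minus strand), Nkd2 at chr13:73818534-73847631 (minus strand), Tnfsf11 at chr14:78277445-78308043 (minus strand), Tnfrsf11a at chr1:105780718-105847981 (plus strand), Tcf7 at chr11:52252371-52283014 (minus strand) and Lef1 at chr3:131110471-131224356 (plus strand).

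The cells came from inguinal glands of C57BL/6 mice that all carried WAP-CRE, in which the promoter of Wap, a milk protein gene, drives Cre recombinase. In the N1ICD-EGFP group (WAP-CRE; R26-N1ICD-EGFP) Cre switches on the intracellular, active part of Notch1 with a green reporter from the Rosa26 locus. In the control group (WAP-CRE; R26-tdTomato) it switches on the red reporter tdTomato alone. The labels place tissue collection after 3 to 4 months of lactation, and reporter-positive cells were sorted 1 per well into 1 plate of 384 wells per group. The promoter limits the model to cells in which Wap has been active and to their progeny, and the labels do not say how many animals went into a plate. Each plate therefore counted as 1 sample, no test between the groups was possible, and genotype, reporter colour and plate cannot be told apart.

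In the mammary gland, Wnt and Rank signals pass between neighbouring epithelial cells. Hormone-sensing luminal cells, which carry the estrogen, progesterone and prolactin receptors, release Wnt4 and RANKL, and neighbouring luminal progenitors and basal cells receive them. R-spondins keep Wnt receptors at the cell surface by binding Lgr receptors and removing the ligases Rnf43 and Znrf3. Inside the receiving cell, stabilised beta-catenin works with TCF and LEF proteins, and naked cuticle proteins such as Nkd2 bind Dishevelled and dampen the signal.

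Cells with at least 50000 reads and 1000 genes were kept, 73.7% of the wells of the N1ICD-EGFP and 86.98% of the control plate. Their reads ranged over 51736 to 615615 (median 348469) and 50048 to 608476 (median 241888), while the median number of genes was 2482 in N1ICD-EGFP and 3598 in control cells. Clustering without the 10 genes and their pathway lists gave 7 hormone-sensing luminal-like cells in the N1ICD-EGFP plate (2.47%) and 65 in the control plate (19.5%). Luminal progenitor/secretory-like cells, called progenitor/secretory-like here, made up 67.5% and 62.6% of the kept cells. Immune-like cells numbered 48 and 53, and the control ones formed 1 shallow cluster (median 109531 reads) in which progenitor, secretory and fibroblast markers were read as well (3604, 7608 and 4068 summed CPM). The control plate alone gave a basal-like cluster (7 cells), and the N1ICD-EGFP plate alone an unnamed one, cluster 3, of 37 cells led by Col6a1, Krt14 and Col6a2. The reporter transcript eGFP was read in 93 N1ICD-EGFP cells (32.9%) and 55 control cells (16.5%), at 31.8 and 0.791 CPM (summed reads scaled to a common total). Progenitor/secretory-like and cluster 3 cells held 2542 and 552 of the 3095 reads in the N1ICD-EGFP plate. Its hormone-sensing and immune-like cells thus had next to none.

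Over all kept cells, 3 of the 9 genes that reached 5 CPM in either plate were at least 2-fold higher in the N1ICD-EGFP plate, against 11.1% of the 12021 genes measured. A further 3 were at least 2-fold lower, against 8.29% of all genes. Nkd2, Rspo1 and Lef1 were higher, and Wnt4, Wnt5a and Lgr5 were lower. The median log2 ratio of the 9 was -0.17, beside 0.07 for all genes. In such sums over a plate, fewer cells of a type and less RNA per cell cannot be told apart, so the account below goes by cell class.

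**Figure D1:**
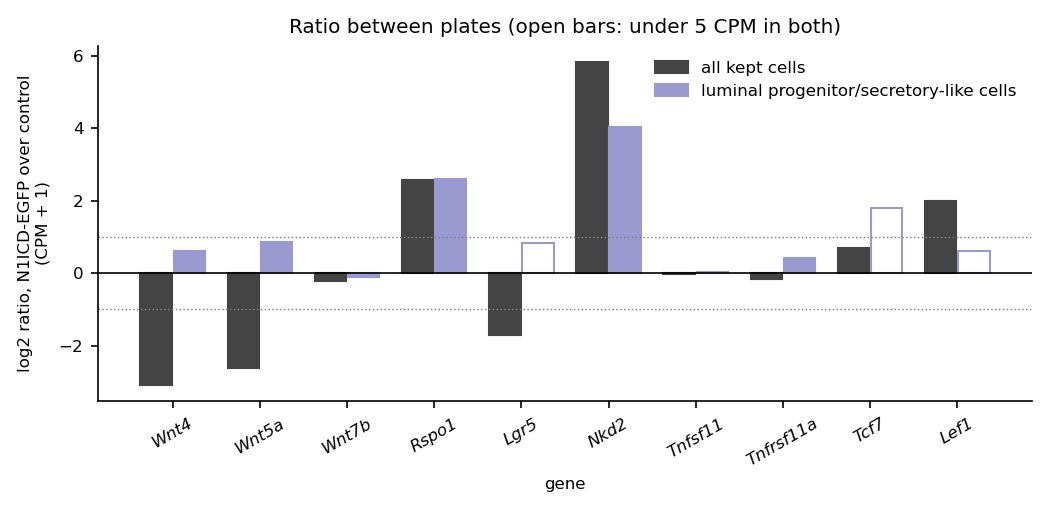
Log2 ratio of N1ICD-EGFP over control for each gene, from summed reads in CPM plus a pseudocount of 1, over all kept cells (dark bars) and within progenitor/secretory-like cells (light bars). Dotted lines mark 2-fold and open bars mark genes under 5 CPM in both plates. Wnt4 and Wnt5a are below -2 over all cells but above 0 within the class, while Nkd2 and Rspo1 lie above 2 in both.

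Wnt4 was mainly a gene of hormone-sensing luminal-like cells. In the control plate these cells held 97.4% of all Wnt4 reads, and 64 of the 65 had at least 1 read. Single control cells of the class lay between 0 and 2437 CPM with a median of 285.9 CPM. Of the progenitor/secretory-like control cells 16 (7.66%) had a Wnt4 read and 6 had at least 10. The summed level was 393.9 CPM in hormone-sensing and 4.19 CPM in progenitor/secretory-like control cells, a ratio of 93.97 (counting interval 81.9 to 108.3). Intervals given here cover counting error only, with each read taken as an independent count, and leave out the spread between cells. They are too narrow even for counting error, because molecules were not tagged before amplification and several reads can come from 1 molecule.

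Over all cells Wnt4 stood at 11.3 CPM (10.6 to 11.98) in the N1ICD-EGFP plate, against 103.7 CPM (101.5 to 105.9) in the control plate, a log2 ratio of -3.09. It was read in 22 N1ICD-EGFP cells (7.77%) and 83 control cells (24.9%), and in 6.36% and 22.2% after each cell was thinned to 50000 reads. Among hormone-sensing luminal-like cells, the 7 of the N1ICD-EGFP plate lay between 0 and 948.4 CPM with a median of 62.8 CPM, and their sum was 98.4 CPM, against 393.9 CPM in the 65 control cells. The 7 cells, which had next to no eGFP reads, thus lay within the range of the control cells. The sum was 4.01-fold lower, with 1 of the 4 members measured in this comparison lower against 33.2% of 10465 genes and 1 higher (Tnfsf11) against 16.2%. Under the mean of per-cell CPM the log2 ratio of Wnt4 was -0.98, less than 2-fold. In the progenitor/secretory-like class the direction was the other way and under 2-fold, with 6.98 CPM in N1ICD-EGFP and 4.19 CPM in control cells (log2 ratio 0.62). In the N1ICD-EGFP plate the Wnt4 reads were spread over classes, with 24.8% in hormone-sensing, 42.04% in progenitor/secretory-like and 33.1% in cluster 3 cells. Of the 15 N1ICD-EGFP cells with 10 or more Wnt4 reads, 4 (26.7%) had a read of the progesterone receptor gene Pgr and 10 (66.7%) of the progenitor receptor gene Kit, beside 3.45% and 71.3% of the N1ICD-EGFP cells with no Wnt4 read. Of the 67 such control cells, 62 (92.5%) had a read of Pgr and 12 (17.9%) of Kit, beside 7.57% and 81.3% of the control cells with none.

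Wnt5a, a ligand best known for beta-catenin-independent signalling, shared that distribution. Hormone-sensing luminal-like cells held 95.5% of its reads in the control plate, where 52 of 65 cells had a read. Their sum was 276.6 CPM, against 3.69 CPM in progenitor/secretory-like control cells, of which 10 (4.78%) had a read, a ratio of 74.95. In N1ICD-EGFP hormone-sensing luminal-like cells 6 of 7 had a read, and their sum was 178.3 CPM against 276.6 CPM in control cells, a log2 ratio of -0.63 that did not reach 2-fold. Over all cells Wnt5a was at 11.4 CPM in the N1ICD-EGFP and 74.2 CPM in the control plate (log2 ratio -2.61). Progenitor/secretory-like cells had 7.45 and 3.69 CPM, on 5 N1ICD-EGFP (2.62%) and 10 control cells (4.78%), with 44.6% of the N1ICD-EGFP reads of the class in 1 cell. Both ligands were read together in 52 control cells, of 83 with Wnt4 and 67 with Wnt5a, and in 5 N1ICD-EGFP cells, of 22 and 17.

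Across the kept control cells, which share 1 plate, the Pearson correlation of log2(CPM + 1) between Wnt4 and Wnt5a was 0.68. The 5 genes most like Wnt4 among 9653 were Gipc2 (0.91), Agtr1a (0.90), Tmem56 (0.89), Tspan1 (0.89) and Cdo1 (0.88). Those most like Wnt5a were Ptn (0.75), Gipc2 (0.75), Cxcl15 (0.75), Mtmr7 (0.74) and Tspan1 (0.73). Wnt7b and Tnfrsf11a had no gene above 0.31 and 0.25.

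Wnt7b, a beta-catenin-activating ligand, was a gene of both luminal classes. It was read in 43 progenitor/secretory-like cells of the N1ICD-EGFP plate (22.5%) and 66 of the control plate (31.6%), or in 18.8% and 28.7% after thinning, at 62.03 (60.15 to 63.96) and 67.4 (65.1 to 69.7) CPM. The log2 ratio was -0.12. Single cells reached 1404 CPM in the N1ICD-EGFP and 645.3 CPM in the control plate, and the median cell was at 0 in each. Hormone-sensing luminal-like cells had 64.8 CPM in the N1ICD-EGFP plate (2 of 7 cells, 95.6% of the reads in 1) and 46.5 CPM in the control plate (26 of 65 cells). Per kilobase of exon, progenitor/secretory-like control cells had 13.8 CPM of Wnt7b, 0.9995 CPM of Wnt4 and 0.472 CPM of Wnt5a, while hormone-sensing control cells had 9.50, 93.9 and 35.4 CPM per kilobase. Wnt7b was thus the highest of the 3 ligands in progenitor/secretory-like and the lowest in hormone-sensing control cells.

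**Figure D2:**
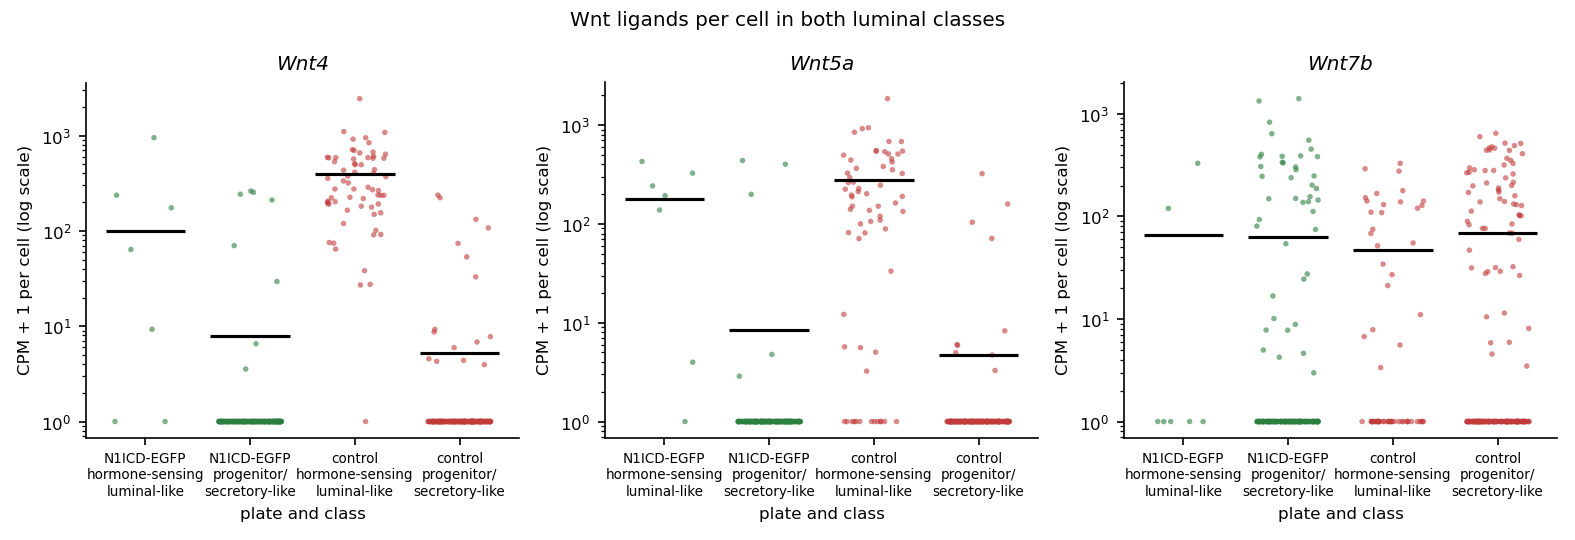
Level of Wnt4, Wnt5a and Wnt7b in single cells (CPM + 1, log scale) of both luminal classes, N1ICD-EGFP in green and control in red; each point is a cell and each bar the level from the summed reads of the class. Wnt4 is read in 64 of 65 hormone-sensing luminal-like control cells and in 7.66% of progenitor/secretory-like control cells, and Wnt7b reaches both classes in both plates.

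Rspo1 encodes a secreted R-spondin that strengthens Wnt signalling through Lgr receptors. It was read in 23 N1ICD-EGFP cells (8.13%) and 11 control cells (3.29%), or in 4.95% and 2.40% after thinning, at 23.7 (22.7 to 24.7) and 3.17 (2.80 to 3.59) CPM, a 7.46-fold higher level. Cells with 10 or more reads numbered 15 in the N1ICD-EGFP plate and 5 in the control plate. Of these, 14 of 15 and 5 of 5 had a read of Kit, which 70% of the N1ICD-EGFP and 67.8% of the control cells without an Rspo1 read had too. A read of eGFP was found in 11 of 15 and 1 of 5. It was found in 32.9% and 16.5% of all kept cells and in 38.2% and 22.5% of progenitor/secretory-like cells. Among progenitor/secretory-like cells the level was 33.4 CPM in N1ICD-EGFP (20 cells, 10.47%) and 4.65 CPM in control cells (6 cells, 2.87%), a log2 ratio of 2.60. Clusters 1 and 2 of the N1ICD-EGFP plate held most of it (68.99 and 43.8 CPM), and cluster 0 little (0.942 CPM). No hormone-sensing luminal-like cell of either plate had a read of Rspo1. In the control plate 0 of 65 cells allows a share of up to 4.62% of cells with a read. That is above the 2.87% of progenitor/secretory-like control cells, whose 4.65 CPM was under the 5 CPM needed for a ratio between these classes. The ratio over all cells stayed past 2-fold in all 14 alternative settings, between 1.81 and 2.95 on the log2 scale.

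Nkd2 had the largest ratio between the plates over all cells among the 10 genes. It was read in 58 N1ICD-EGFP cells (20.5%) and 8 control cells (2.40%), or in 15.2% and 2.10% after thinning, at 256.8 (253.7 to 260.04) and 3.53 (3.14 to 3.97) CPM, 72.7-fold higher (64.7 to 81.97) in the N1ICD-EGFP plate. Cells with 10 or more reads numbered 40 in the N1ICD-EGFP and 4 in the control plate. Of the 40, 31 belonged to cluster 3 and 9 to cluster 1, and clusters 0, 2, 4, 5, 6 and 7 had none. In cluster 3, 31 of 37 cells were at or above 10 reads, single cells reached 5884 CPM, and the median cell had 1067 CPM. The summed level was 1792 CPM in cluster 3 and 70.3 CPM in the progenitor/secretory-like cells of the same plate, where 1 cell of cluster 1 held 50.9% of the reads. In the 48 immune-like cells of this plate, with a median of 339930 reads, 3 cells had a single Nkd2 read each (6.25%). Whether these were stray reads was not tested. No hormone-sensing luminal-like cell of either plate and no basal-like cell had one.

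Cells with Nkd2 were set beside markers of other cells. Of the 40 N1ICD-EGFP cells with 10 or more reads, 36 had a read of Kit, 16 of the basal keratin gene Krt14 and 21 of eGFP. These are 90%, 40% and 52.5% of them. Among the N1ICD-EGFP cells with no Nkd2 read, 67.6% had Kit, 3.11% had Krt14 and 28% had eGFP. These include immune-like cells, and the immune marker gene Ptprc was read in 23.6% of them against 5% of the 40. In all of cluster 3, 51.4% of the cells had a read of eGFP. Cluster 3 as a whole was at 1698 CPM for 8 summed progenitor markers, 1199 CPM for 10 basal markers with Cnn1, Oxtr and Trp63 at 0, and 2.29 CPM for 7 fibroblast markers. It stayed unnamed because 5 progenitor markers were raised in it while the basal Krt14 was the marker among its 10 leading genes. Across the kept N1ICD-EGFP cells of 1 plate the genes most like Nkd2 were Phldb2 (0.76), Cryba4 (0.66), Gprc5a (0.61), Calml3 (0.60) and Col6a1 (0.59), a list taken in this plate after the Nkd2 values had been seen.

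Inside the progenitor/secretory-like class Nkd2 was 20.8-fold higher in N1ICD-EGFP than in control cells (70.3 and 3.37 CPM), but the direction turned under another clustering. With both plates clustered together, the unnamed cells of that plate numbered 70, and Nkd2 in the class was at 0.211 CPM in N1ICD-EGFP and 5.40 CPM in control cells, a log2 ratio of -2.40. The ratio over all cells needs no classes and lay between 4.34 and 6.87 on the log2 scale in all 14 alternative settings.

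The start regions of Nkd2 and Rspo1 are shown because active Notch1 works through the DNA-binding protein RBPJ and Nkd2 and Rspo1 were past 2-fold between the plates both over all cells and within the progenitor/secretory-like class. RefSeq start regions of GRCm38.p6 were at hand for 7 of the 10 genes; Wnt5a, Wnt7b and Lgr5 had none. Each run is the 250 bases before the start on the gene's strand, chr13:73847632-73847881 (minus strand) for Nkd2 and chr4:124986180-124986429 (plus strand) for Rspo1, with motif matches in capitals.
Nkd2: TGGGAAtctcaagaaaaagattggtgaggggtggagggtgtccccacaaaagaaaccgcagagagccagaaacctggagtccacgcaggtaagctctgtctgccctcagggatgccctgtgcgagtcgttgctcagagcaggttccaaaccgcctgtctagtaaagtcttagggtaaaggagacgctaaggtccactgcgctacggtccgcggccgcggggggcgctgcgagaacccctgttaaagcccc
Rspo1: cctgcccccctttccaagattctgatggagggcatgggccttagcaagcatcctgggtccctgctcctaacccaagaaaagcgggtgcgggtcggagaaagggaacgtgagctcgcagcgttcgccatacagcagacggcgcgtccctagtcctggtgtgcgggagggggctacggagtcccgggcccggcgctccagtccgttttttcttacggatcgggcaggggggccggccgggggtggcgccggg
Searched on both strands were TGGGAA (the core bound by RBPJ), CTTTGAT (TCF/LEF), TGTTCT (a steroid receptor half-site) and TGTTTAC (FOXA). The capitals in Nkd2 mark a single TGGGAA, which begins 250 bases before the start, and Rspo1 held no match. These motifs occur in 21.6%, 3.21%, 16.1% and 3.16% of 32817 such windows, so 1 match among the genes shown is no more than a description. No matches overlapped.

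**Figure D3:**
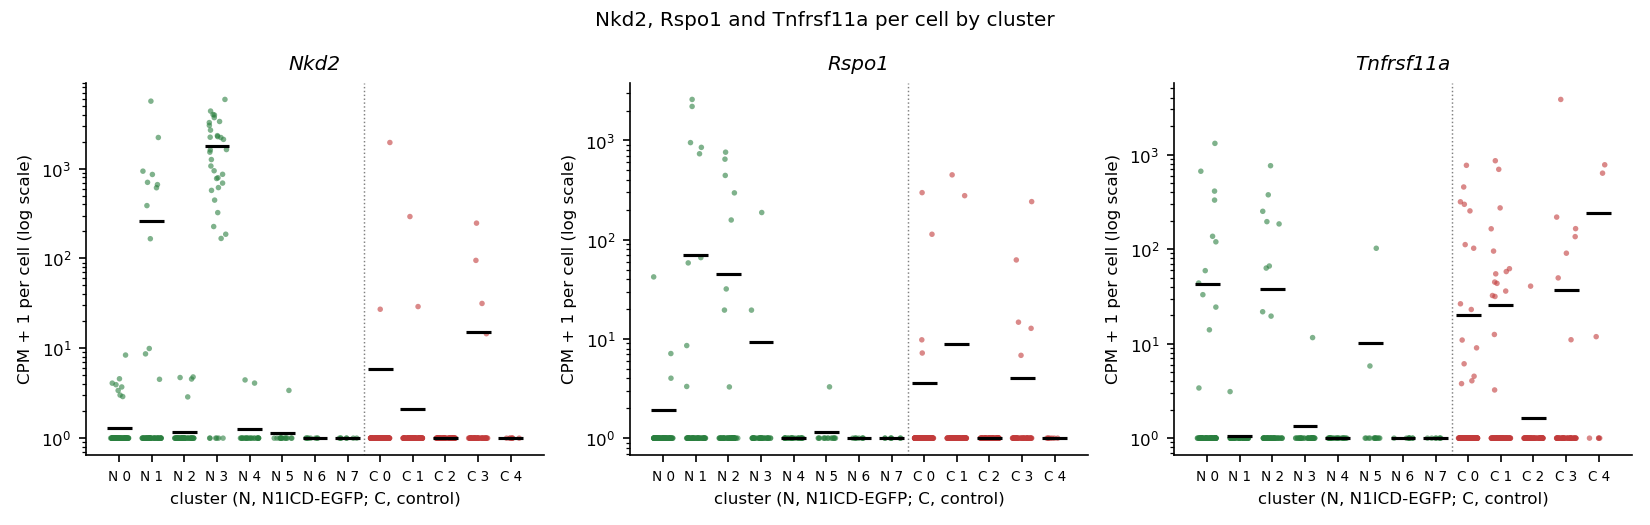
Level of Nkd2, Rspo1 and Tnfrsf11a in single cells (CPM + 1, log scale) by cluster, N1ICD-EGFP clusters N 0 to N 7 in green and control clusters C 0 to C 4 in red; each point is a cell and each bar the level from summed reads. Nkd2 is high in 31 of 37 cells of N 3, Rspo1 in a few cells of N 1 and N 2, and Tnfrsf11a is nearly absent from N 1, N 3 and the hormone-sensing clusters N 7 and C 2.

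Lgr5, an R-spondin receptor known as a stem cell marker, belonged to basal-like cells. The 7 basal-like control cells lay between 0 and 699.2 CPM with a median of 158.6 CPM, and 5 of them held 84.3% of the control plate's Lgr5 reads. Over all cells the gene was at 2.06 CPM in the N1ICD-EGFP plate (3 cells) and 8.99 CPM in the control plate (13 cells), a log2 ratio of -1.71. The N1ICD-EGFP plate had no basal-like cluster, and the direction turned when luminal-like cells alone were compared (2.92 and 0.906 CPM, log2 ratio 1.04). Wells of columns 13 to 24 gave 1.90 CPM in the N1ICD-EGFP and 1.80 CPM in the control plate. Of the 2 N1ICD-EGFP cells with 10 or more reads, both had Krt14 and neither had Kit or eGFP. Of the 9 such control cells, 6 had Krt14.

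**Figure D4:**
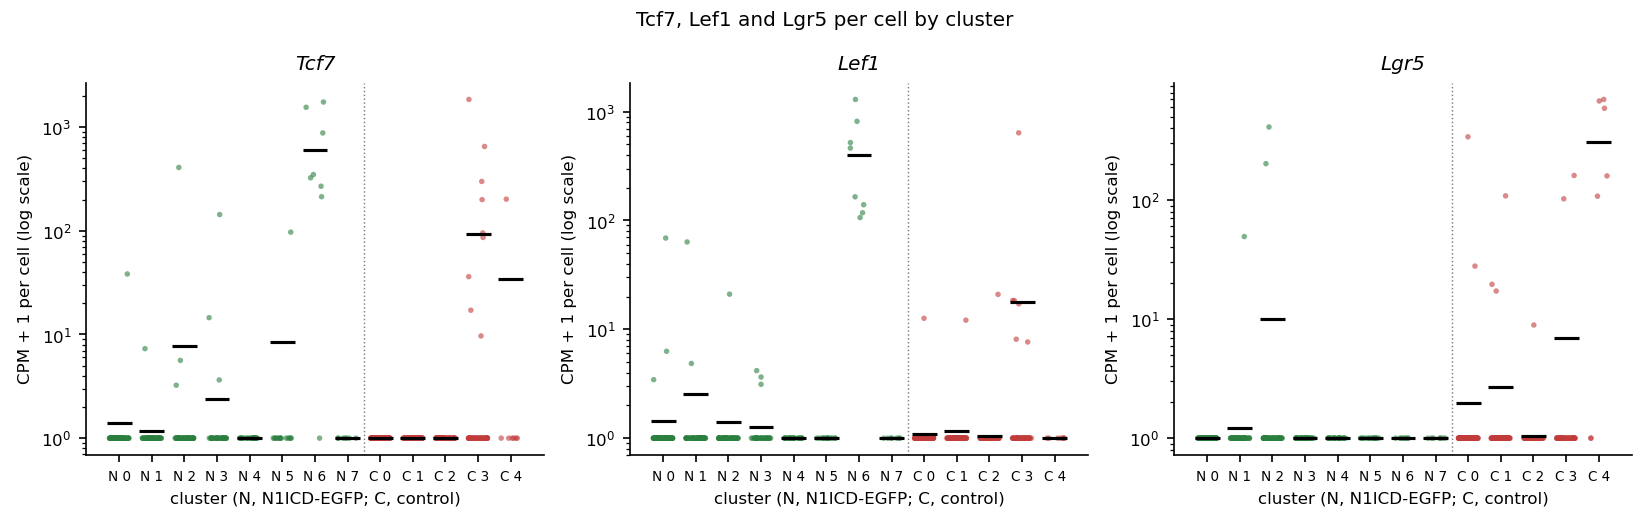
Level of Tcf7, Lef1 and Lgr5 in single cells (CPM + 1, log scale) by cluster, labelled as N 0 to N 7 (N1ICD-EGFP, green) and C 0 to C 4 (control, red), with bars for the level from summed reads. Tcf7 and Lef1 stand out in N 6, a cluster of 8 cells led by T cell genes, and Lgr5 in C 4, the 7 basal-like cells.

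Tnfsf11, the RANKL gene, was the scarcest of the 10. It stood at 1.53 CPM in the N1ICD-EGFP plate (2 cells) and 1.58 CPM in the control plate (5 cells), under the 5 CPM needed for a ratio. A single hormone-sensing luminal-like cell held 99.3% of the N1ICD-EGFP reads. In the control plate 3 of 65 hormone-sensing luminal-like cells had 88 reads, 89.8% of them in 1 cell, and 2 cells of the mixed immune-like cluster had 40. No progenitor/secretory-like control cell had a read, which allows a share of up to 1.44% of cells. The 12.6-fold higher sum in hormone-sensing N1ICD-EGFP cells came from that 1 cell, and the ratio turned without it (log2 -0.53).

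Tnfrsf11a, the RANK gene, lay mainly outside the hormone-sensing class. In the control plate it was read in 1 of 65 hormone-sensing luminal-like cells (0.627 CPM) and in 30 progenitor/secretory-like cells (14.4%, 21.3 CPM), a 33.9-fold lower level in the hormone-sensing class. Basal-like control cells had 241.9 CPM on 3 of 7 cells. Over all cells the level was 20.3 CPM (19.4 to 21.2) in the N1ICD-EGFP and 22.9 CPM (21.9 to 24.01) in the control plate, a log2 ratio of -0.17. The progenitor/secretory-like class had 28.8 CPM on 22 N1ICD-EGFP cells (11.5%) and 21.3 CPM on 30 control cells (14.4%), a log2 ratio of 0.42, and the shares were 9.95% and 11.005% after thinning. The N1ICD-EGFP clusters of the class were uneven. Clusters 0 and 2 had 41.5 CPM (12 of 79 cells) and 36.9 CPM (9 of 55 cells). The highest cell of cluster 0 was at 1312 CPM. By contrast, cluster 1 had 1 read in 57 cells and cluster 3, outside the class, 4 reads in 1 of 37 cells. Both Nkd2 and Tnfrsf11a were read in 4 N1ICD-EGFP cells, of 58 and 25. Wnt7b and Tnfrsf11a were read together in 11 cells of each plate, of 54 and 25 in the N1ICD-EGFP and of 96 and 41 in the control plate.

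**Figure D5:**
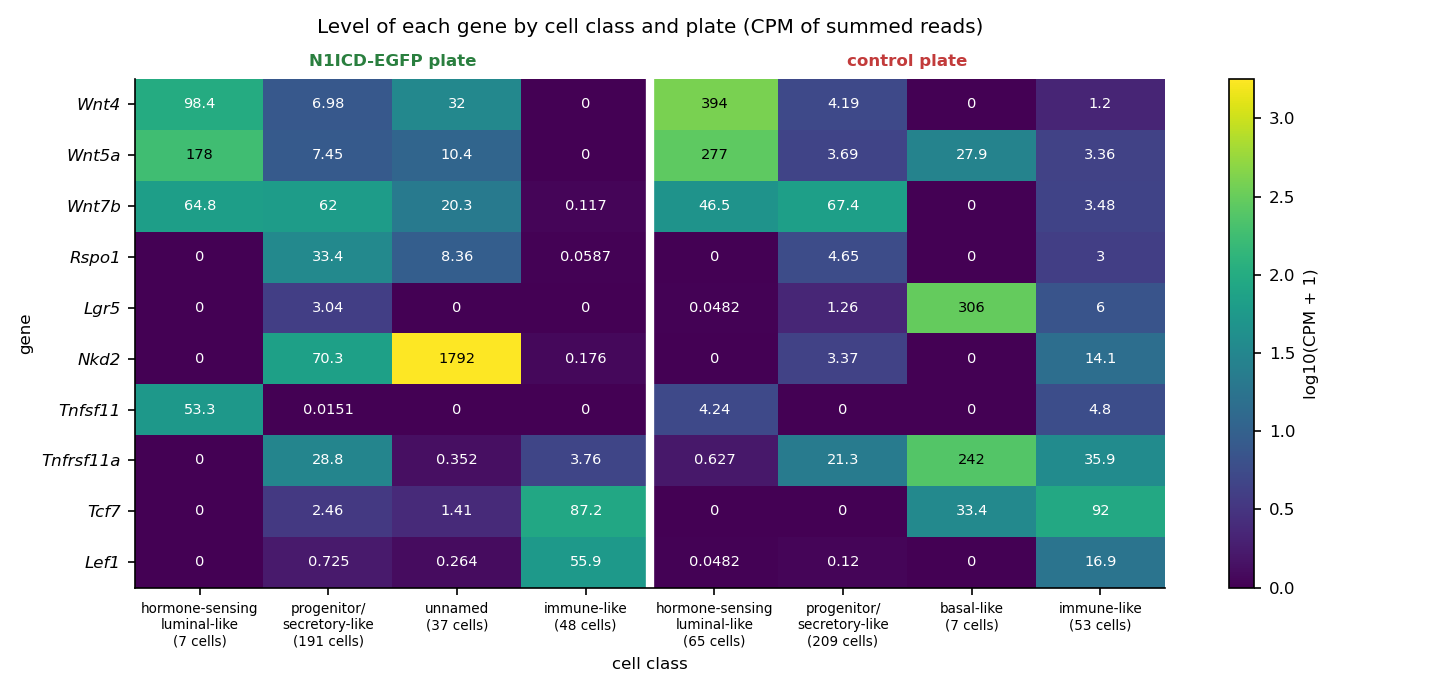
Level of the 10 genes (rows) in CPM of summed reads by cell class and plate (columns, with the number of cells); colour is log10(CPM + 1), and the numbers are CPM. Wnt4 and Wnt5a peak in the hormone-sensing columns, Nkd2 in the unnamed cluster of the N1ICD-EGFP plate at 1792 CPM, Lgr5 and Tnfrsf11a in basal-like control cells, and Tcf7 and Lef1 in the immune-like columns.

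Tcf7 and Lef1, the TCF and LEF factors also known for their role in T cells, were read mainly in immune-like cells. These held 89.2% of the Tcf7 and 94.9% of the Lef1 reads of the N1ICD-EGFP plate and 91.97% and 95.3% of those of the control plate. Cluster 6 of the N1ICD-EGFP plate, 8 cells led by the T cell genes Cd247, Ms4a4b and Cd5, had Tcf7 at 597.2 CPM in 7 cells and Lef1 at 397.4 CPM in 8. Of the cells with 10 or more Tcf7 reads, 9 of 11 N1ICD-EGFP and 4 of 7 control cells had a read of the T cell genes Cd3e or Cd3g. For Lef1 it was 9 of 10 N1ICD-EGFP cells and the 1 control cell. Over all cells Lef1 was at 10.3 CPM in the N1ICD-EGFP and 1.83 CPM in the control plate (log2 ratio 2.0), and 1 cell held 87.8% of the control reads. Without immune-like cells it no longer reached 5 CPM in either plate. Tcf7 was at 17.1 and 10.3 CPM (log2 ratio 0.68). Among progenitor/secretory-like cells Tcf7 was at 2.46 CPM in 5 N1ICD-EGFP cells, 89.6% of the reads in 1 of them, and had 0 reads in control cells, while Lef1 had 48 reads in 6 N1ICD-EGFP and 6 reads in 2 control cells.

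The luminal classes of the control plate were also compared in other genes of both pathways. Here 2 of the 4 members measured were at least 2-fold higher in hormone-sensing luminal-like than in progenitor/secretory-like cells (Wnt4 and Wnt5a), against 16.7% of 11113 genes, and 1 was lower (Tnfrsf11a), against 19.4%. All 4 R-spondin receptors and ligases were lower in hormone-sensing cells. Lgr6 was at 1.16 CPM in hormone-sensing and 135.8 CPM in progenitor/secretory-like cells, Lgr4 at 14.6 and 79.5 CPM and the ligase gene Znrf3 at 5.59 and 19.9 CPM. The only other Wnt ligand measured, Wnt5b, was at 1.06 CPM in hormone-sensing and 230.1 CPM in progenitor/secretory-like cells. Both measured genes of Wnt release were higher in hormone-sensing cells, the acyltransferase gene Porcn at 44.2 against 13.1 CPM and the transporter gene Wls at 373.4 against 142.6 CPM.

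Of 12 measured Wnt receptors, 4 were higher and 3 lower in hormone-sensing than in progenitor/secretory-like control cells. The shares of all genes were 16.7% and 19.4%, here and for the counts that follow. Fzd4 was at 34.2 CPM on 24 of 65 hormone-sensing cells, against 0.12 CPM on 1 progenitor/secretory-like cell, and Fzd10 at 18.4 against 1.40 CPM. Fzd2, at 5.64 against 0.622 CPM, turned in well columns 13 to 24. The co-receptor genes Lrp5 (35.04 against 21.2 CPM) and Lrp6 (113.7 against 123.7 CPM) did not reach 2-fold. Among secreted antagonists Sfrp2 was at 0.241 against 92.3 CPM and Dkk3 at 57.7 against 0.923 CPM. Of the intracellular machinery 1 of 15 was higher and 3 lower, among them the TCF gene Tcf7l2 at 78.4 CPM in hormone-sensing and 640.6 CPM in progenitor/secretory-like cells. The 3 measured Wnt target genes were all lower, with Cd44 at 6.75 against 218.5, Myc at 12.5 against 133.3 and Ccnd1 at 150.3 against 460.3 CPM. Axin2, a widely used Wnt target, stayed below 5 CPM, at 0.578 and 0.181 CPM. Of 15 Rank pathway genes 1 was higher and 2 lower, below those 16.7% and 19.4% of all genes. The RANKL decoy receptor gene Tnfrsf11b was at 14.2 CPM (7 of 65 hormone-sensing cells) against 0.0802 CPM (2 progenitor/secretory-like cells), and the Rank target Id2 at 28.9 against 445.9 CPM.

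The same lists were compared between the plates over all cells, where 11.1% of all genes were higher and 8.29% lower. None of the 4 R-spondin receptors and ligases reached 2-fold, with Lgr4 at 58.5 CPM in N1ICD-EGFP and 58.2 CPM in control cells and Lgr6 at 55.1 and 89.9 CPM. Of 13 measured Wnt receptors 1 was higher, Fzd2, and 2 lower, Fzd8 and Fzd10, each at or under 10.8 CPM in both plates. Fzd10 and Fzd8 stayed past 2-fold in 8 and 10 of 14 settings. Among 5 measured antagonists Sostdc1 was higher (22.98 and 1.37 CPM) and 3 were lower, Sfrp1 at 3.12 and 36.6 CPM among them. Sfrp1 turned when luminal-like cells alone were compared (4.41 and 2.35 CPM). Of 4 Wnt target genes Tnfrsf19 was higher at 11.99 and 0.247 CPM and Ccnd1 at 743.8 and 343.8 CPM, and Cd44 was lower at 96.95 and 196.6 CPM. Past 2-fold stayed Tnfrsf19 in 12, Ccnd1 in 9 and Cd44 in 11 of 14 settings. Axin2 had 0.781 and 0.717 CPM. Of 15 Rank pathway genes 2 were higher, Map3k14, which encodes the NF-kappaB inducing kinase, at 20.2 and 9.27 CPM and Tnfrsf11b at 12.6 and 3.83 CPM, the second turning in well columns 1 to 12. Map3k14 stayed past 2-fold in 8 of 14 settings, with log2 ratios down to 0.24.

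Between progenitor/secretory-like cells of the plates, 2 of the 6 members measured were higher in the N1ICD-EGFP plate, Nkd2 and Rspo1, against 13% of 11264 genes, and 0 were lower, against 6.72%. The median log2 ratio was 0.73 for these 6 and 0.12 for all genes. In the same class, summed basal markers were at 330.1 CPM in N1ICD-EGFP and 72.5 CPM in control cells and summed fibroblast markers at 699.9 and 17.6 CPM. Of the 10 basal markers 10 reached 5 CPM in N1ICD-EGFP and 3 in control cells, and of the 7 fibroblast markers 7 and 1. Their part in the ratios of this class was not tested. Lgr4 was at 81.96 CPM in N1ICD-EGFP and 79.5 CPM in control cells and Lgr6 at 76.8 and 135.8 CPM. Fzd2 (13.2 and 0.622 CPM) and Fzd4 (5.70 and 0.12 CPM) were higher, as were the antagonist genes Dkk3 (14.9 and 0.923 CPM) and Sostdc1 (20.5 and 1.87 CPM), all on few cells. Dkk3 turned with both plates clustered together (log2 -0.87), and Fzd4 stayed past 2-fold in 8 of 13 settings. Fzd8 was lower at 5.39 and 13.04 CPM but turned in well columns 13 to 24. Cd44 was lower at 76.8 and 218.5 CPM. Of 14 measured Rank pathway genes 3 were higher, the adaptor gene Traf2 at 92.7 and 36.1 CPM, Map3k14 at 19.6 and 7.56 CPM and Nfkb2 at 87.3 and 43.1 CPM, and none was lower. Traf2 stayed past 2-fold in all 13 settings, Map3k14 in 8 and Nfkb2 in 6, which was under 2-fold with TMM scaling among others.

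Cluster 3, the main site of Nkd2, was also compared with the progenitor/secretory-like cells of its own plate in further pathway genes. Of 13 measured Wnt receptors 2 were higher and 5 lower, beside 16.1% and 23.1% of all genes. Of 15 intracellular machinery genes 2 were higher and 3 lower, and of 15 Rank pathway genes 1 and 3. Antagonists and Wnt target genes each had 2 higher and 1 lower of 4, R-spondin receptors and ligases 1 and 2 of 4. Genes past 2-fold are named below, at most 3 per list. The receptor gene Fzd2 was lower past 2-fold in all 8 settings (log2 -4.24 to -1.86). So were the machinery genes Bcl9 (-4.02 to -1.30) and Ctnnbip1 (-3.26 to -1.39). The Rank pathway genes Birc3 (-2.90 to -1.68) and Traf3 (-2.11 to -1.11) were too. The machinery gene Pygo2 was higher in all 8 (1.33 to 2.68). Past 2-fold in 4 of 8 settings were Fzd4, lower, and Znrf3, higher. Wls was higher past 2-fold in 5 of 8. The cluster was singled out for its Nkd2 level, so that gene is left out of the count of members. Of the 5 other members measured 1 was higher, Wnt4 (32.05 and 6.98 CPM), against 16.1% of 11505 genes, and 3 were lower, Wnt7b (20.3 and 62.03 CPM), Rspo1 (8.36 and 33.4 CPM) and Tnfrsf11a (0.352 and 28.8 CPM), against 23.1%. Wnt4 had a log2 ratio of -0.13 in well columns 13 to 24, that of Rspo1 was under 2-fold in well columns 1 to 12, and that of Wnt7b was under 2-fold in 3 of 8 settings. The Wnt target genes Tnfrsf19 (92.6 CPM in cluster 3 and 1.496 CPM in progenitor/secretory-like cells) and Ccnd1 (2440.3 and 656.1 CPM) were higher and Myc was lower (63.3 and 234.9 CPM). Axin2 was at 3.43 and 0.302 CPM, on 3 and 4 cells. Ror1, a Wnt5a receptor gene, was at 32.2 and 0.378 CPM, on 13 and 4 cells. Tnfrsf11b was at 89.01 CPM on 6 and 3.19 CPM on 4 cells, and it had 0 reads in cluster 3 in well columns 1 to 12. The antagonist genes Dkk3 (135.8 and 14.9 CPM) and Sostdc1 (77.3 and 20.5 CPM) were higher, and Sfrp2 was lower (0.088 and 47.2 CPM). Lgr4 (22.5 and 81.96 CPM) and Lgr6 (25.1 and 76.8 CPM) were lower.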

How the data were processed

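Single cells were profiled with Smart-Seq2. The authors deposited raw read counts, 1 column per cell, without molecular identifiers. STAR and mm10 are named in the submitters' processing notes; versions, the counting tool and strand use were not given in the sources used here. Of 24490 rows, 492 repeated an earlier name and were added to it, and eGFP was set apart. Kept were 283 N1ICD-EGFP and 334 control cells, of which 191 and 209 were progenitor/secretory-like. Each plate is 1 sample, so no p-values were computed. Reads were summed per class and plate and divided by their total (CPM). Ratios are log2 of CPM plus 1, and 2-fold was read for genes at 5 CPM or more in either group. Sums have exact Poisson, ratios exact binomial and shares Clopper-Pearson 95% intervals; the share that a count of 0 allows is 3 cells of the total. Shares of cells are of all reads unless given after thinning each cell to 50000 reads.

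Each plate was clustered on its own (scanpy 1.11.5, leidenalg 0.10.2, 2000 variable genes, 15 components, 15 neighbours, resolution 0.8) without the 10 genes and 95 pathway genes. A cluster was named for the class with most raised markers (3 or more), unless another class had more markers among its 10 leading genes. No doublet caller was run; an alternative left out cells with more genes than the median plus 3 median absolute deviations. Exon lengths are from GENCODE M21 on GRCm38. The rule for names took all 10 genes, of each pathway list at most 3 past 2-fold, and Axin2, Lgr4, Lgr6, Tnfrsf11b, Lrp5 and Lrp6. The genes and lists were chosen with earlier results of these data known. The procedure was tested on simulated data.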

Additional observations from a re-analysis of the deposited data

Results flagged for a closer look

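The reporter transcript eGFP, a row outside the mouse genes, was read at 31.8 CPM in the kept N1ICD-EGFP cells and 0.791 CPM in the control cells, which carry tdTomato and no EGFP. It was picked out as a signal in data that the comparisons do not use. It was read in 93 N1ICD-EGFP cells (32.9%) and 55 control cells (16.5%), those of the control plate mostly with a single read each (64 reads in all). In cluster 3, where Nkd2 was highest, 19 of 37 cells (51.4%) had a read of eGFP, at 48.6 CPM. In progenitor/secretory-like cells the level was 38.4 CPM in the N1ICD-EGFP and 1.12 CPM in the control plate.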

How the results depend on the processing

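No paired analysis was possible because the result comes from no test and the replicate numbers only count cells in a plate. Over the other settings, 6 values of members past 2-fold turned direction and 10 of the 18 ratios stayed past 2-fold in every setting tried. The 18 include Nkd2 in cluster 3, which was singled out for that gene. For named pathway genes 10 values turned and 36 of 60 ratios stayed past 2-fold. Turned values over all cells were Lgr5 in well columns 13 to 24 (0.048) and in luminal-like cells only (1.04), Tnfrsf11b in well columns 1 to 12 (-0.72) and in luminal-like cells only (-0.36), Sfrp1 in luminal-like cells only (0.69) and Fzd8 in well columns 13 to 24 (0.44). Within progenitor/secretory-like cells they were Nkd2 (-2.40) and Dkk3 (-0.87) with both plates clustered together and Fzd8 in well columns 13 to 24 (0.92). Between control classes Fzd2 turned in well columns 13 to 24 (-1.21). In cluster 3, Znrf3 turned when thinned (-0.077) and in well columns 13 to 24 (-0.85), where Wnt4 did too (-0.13), and Tnfrsf11b in well columns 1 to 12 (-1.78). Tnfsf11 in hormone-sensing cells turned without possible doublets (-0.70) and without its top cell (-0.53). The first of these settings, a limit on genes per cell, left 4 of 7 N1ICD-EGFP and 31 of 65 control cells of the class. The cause was not tested.

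The count of members past 2-fold over all cells stayed between 4 and 7, against 6. Within progenitor/secretory-like cells it was 4 at 1.5-fold, against 2. Between control classes, 3 became 5 in well columns 13 to 24 and with per-cell CPM averaged, 6 when thinned and 7 with no filter on low values. In cluster 3, 5 became 3 in well columns 13 to 24. This count includes Nkd2, for which the cluster was singled out. In hormone-sensing cells 2 became 1 without possible doublets and with per-cell CPM averaged. The settings for cluster 3 and for hormone-sensing cells between plates, luminal-like cells only and leaving out the top cell were chosen after seeing the data. Over all cells, 1 of 20 shares of cells at full depth lay outside the interval of the thinned share, that of Nkd2 in the N1ICD-EGFP plate (20.5%, and 15.2% thinned). In the progenitor/secretory-like class the median log2 ratio of all genes was 0.12 by total reads and 0.0018 with TMM scaling.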

Other observations

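Wells left out for few reads or genes held reads of some of the same genes. Nkd2 was at 81.6 CPM in 7 left-out wells of the N1ICD-EGFP plate and at 0.744 CPM in 1 of the control plate. Lgr5 was at 0.633 CPM in the N1ICD-EGFP plate (1 well) and at 106.4 CPM in the control plate (6 wells). Tnfrsf11a was at 3.80 CPM in the N1ICD-EGFP plate (4 wells) and 39.5 CPM in the control plate (7 wells).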
